A study of Mus musculus with 12 samples.

Results

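The genes described here are 10 listed targets and feedback inhibitors of fibroblast growth factor (FGF) and extracellular signal-regulated kinase (ERK) signalling: Dusp9, Dusp4, Dusp6, Spry2, Spry4, Spred1, Etv4, Etv5, Egr1 and Ier3. They were taken by gene symbol from 2 tables of comparison results, in which all 10 were found, among 13009 genes listed for mouse embryonic stem (ES) cells and 45706 listed for mouse blastocysts. Dusp9 was chosen by its measured change in the ES cell table, so its values there are a description with no test, while the other members and all blastocyst values were not used in the choice. All 10 members were tested in ES cells, and 9 were tested in blastocysts, where Ier3 was listed at a mean of 0.

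The study compared RNA of Dis3L knockout (KO) and wild-type (WT) samples, Dis3l being the gene of a catalytic subunit of the cytoplasmic exosome, which breaks down RNA from the 3′ end. Per the labels there are 12 samples, 3 in each of 4 groups: Dis3L KO blastocysts, Dis3L WT blastocysts, Dis3L KO ES cells and Dis3L WT ES cells. Blastocysts were collected 96 h after hCG injection of superovulated females, and each library was made from a single embryo by Tn5 tagmentation of cDNA. ES cell lines had been derived from blastocysts on a layer of inactivated mouse embryonic fibroblasts and were cultured with serum and LIF, and their libraries were stranded and depleted of ribosomal RNA. All 4 groups thus share superovulated mothers. Which samples share a mother, a litter or a line is not given in the labels, so the p-values measure the spread between these samples, which may in part be technical.

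In this pathway an FGF ligand, in early embryos mainly FGF4 from epiblast cells, binds FGF receptors and activates RAS, RAF, MEK and ERK in turn. ERK switches on transcription factors of the ETS family (Etv4, Etv5) and immediate early genes (Egr1, Ier3), and also its own inhibitors. Dual-specificity phosphatases (Dusp genes) remove the activating phosphates from ERK and related kinases, and Sprouty and Spred proteins (Spry and Spred genes) restrain the step from receptor to RAF. In the blastocyst the pathway is known for directing inner cell mass cells to primitive endoderm, and in ES cells for priming exit from the naive pluripotent state. Dusp9, an X-linked phosphatase of ERK, is known as a dosage-sensitive member in mouse ES cells.

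Both tables hold the authors' mean of normalised reads, log2 fold change, standard error (SE) and Wald p-values for each gene, with no value per sample and no statement of which genotype a positive sign stands for. The positive side below is the genotype with the higher level where the deposited log2 fold change is positive, and whether it is the same genotype in both tables is not stated. The means were sums of whole reads over unnamed libraries (count columns), and the reads of each column were recovered from their digits: 4 columns in ES cells, 2 a side, although the labels list 6 ES cell samples, and 6 columns in blastocysts, 3 a side. Relative depths (size factors) ran from 0.759 to 1.25 in ES cells and from 0.695 to 1.62 in blastocysts, and over 12137 genes the ES cell columns held 631863 to 1036406 reads. Columns were assigned neither to samples nor to genotypes, and normalised reads are reads divided by the size factor of their column. The targeted gene Dis3l had 14 and 8 reads on the positive side against 39 and 39 on the negative side in ES cells, and 26, 8 and 0 reads against 10, 4 and 8 in blastocysts. ES cell markers were abundant in the ES cell table, with mean normalised reads of 962 for Pou5f1, 485 for Sox2 and 527 for Nanog, and the blastocyst table held reads of all 10 listed trophectoderm and all 10 listed epiblast markers.

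The first question was whether the feedback genes differed between the genotypes in ES cells. Dusp9 was lower in both positive-side columns than in either negative-side column. Of the other 9 members none had an adjusted p under 0.05 in the authors' deposited table (DESeq2 Wald test, Benjamini-Hochberg adjustment over 10739 genes), where 1 of 10 members, Dusp9 itself, was below it and the share of all tested genes was 0.261%, or 0.214% negative. At the unadjusted threshold (p under 0.05) the other 9 held Spry4 on the negative and Spred1 on the positive side, against 5.62% of all tested genes. Fold changes of the 10 members ran from −1.55 to 0.51 on the log2 scale, 3 positive and 7 negative, with a median of −0.06, or −0.04 without Dusp9. On recovered reads that median changed sign with the column left out, from −0.43 without the second negative-side column to 0.12 without the first negative-side column. Over all tested genes 5369 were positive and 5370 negative, with a median of −0.00. In bulk RNA, fewer cells of a type and less RNA per cell cannot be told apart.

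Among the ERK phosphatases, Dusp9 (ENSMUSG00000031383; chromosome X, 73639419 to 73643514, GRCm38) had 96.6 and 63.2 normalised reads in the positive-side columns against 277 and 338 in the negative-side ones, from 121, 48, 291 and 350 reads. The sides lay apart, with a negative-side mean 3.85-fold that of the positive side, a log2 ratio of −1.94. The authors' deposited table gives −1.55 with an SE of 0.26, a smaller size because the fold changes of that table are shrunken towards 0. With each column left out in turn the log2 ratio stayed between −2.28 and −1.67. Dusp6, a cytoplasmic phosphatase of ERK (chromosome 10, 99263231 to 99267489), had 115 and 96.1 normalised reads on the positive side against 118 and 50.2 on the negative side. Its columns overlapped, and the authors' deposited table gives a log2 fold change of 0.23 (SE 0.31, unadjusted p = 0.449). Dusp4, a nuclear phosphatase (chromosome 8, 34807297 to 34819894), had the lowest level per kb of the members, with 31.1 and 34.2 against 44.7 and 24.2 normalised reads. Its sides also overlapped, and its log2 fold change in the authors' deposited table was −0.04 (SE 0.33). Of these phosphatases only Dusp9, which was chosen for its change in this table, had separated columns. Among 6877 genes with a mean of 30 to 350, 41.3% had sides apart, and 20.9% had a lower positive side.

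Of the inhibitors acting upstream of RAF, Spry4 (chromosome 18, 38586268 to 38601268) had 73.4 and 47.4 normalised reads on the positive side against 233 and 98.6 on the negative side. The positive side was lower in both columns, but the negative-side columns differed from each other by more than the nearest columns of opposite sides. The authors' deposited table gives Spry4 a log2 fold change of −1.0 (SE 0.31), an unadjusted p of 0.00115 and an adjusted p of 0.150. When the Wald statistics were rescaled by their robust SD of 0.904, the adjusted p of Spry4 was 0.0421, so its call depends on that setting. The gene overlaps Gm27369 and Gm27804 on the other strand, and whether the counting used strand is not given in the sources used here. Spred1 (chromosome 2, 117121374 to 117182279) pointed the other way, with 341 and 270 normalised reads on the positive side against 221 and 180 on the negative side. Its columns lay apart, at a log2 fold change in the authors' deposited table of 0.51 (SE 0.24, unadjusted p = 0.0353, adjusted p = 0.819). Spry2 (chromosome 14, 105891947 to 105896819) had 88.6 and 52.7 against 106 and 60.9 normalised reads, with overlapping sides and a log2 fold change in the authors' deposited table of −0.15 (SE 0.31). The 3 inhibitors of this class therefore gave values on both sides of 0.

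The ETS factors and immediate early genes, which serve as transcriptional readouts of ERK, had log2 fold changes from −0.35 to 0.06 in the authors' deposited table. Etv4 (chromosome 11, 101769742 to 101785371) had 94.2 and 104 normalised reads on the positive side against 163 and 108 on the negative side. These columns touched without overlapping, and the authors' deposited table gives −0.35 (SE 0.28, unadjusted p = 0.212). Etv5 (chromosome 16, 22381309 to 22439719) had 265 and 216 against 259 and 239 normalised reads. The sides of Etv5 overlapped almost fully, with a log2 fold change in the authors' deposited table of −0.04 (SE 0.24). For Egr1, a zinc finger factor (chromosome 18, 34859823 to 34864984), the positive-side columns held 192 and 51.4 normalised reads and the negative-side columns 163 and 120. One positive-side column was thus the highest and the other the lowest, and the log2 ratio of the sides moved from 0.45 to −1.46 depending on which of them was left out. Ier3 (chromosome 17, 35821684 to 35822923) had 56 and 32 reads in the positive-side columns against 54 and 31, at a log2 fold change in the authors' deposited table of 0.06 (SE 0.32). After normalisation Ier3 overlapped between the sides as well.

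Over the 10 members, 4 had sides that did not overlap in ES cells: Dusp9, Spry4 and Etv4 with a lower positive side and Spred1 with a higher one. Among 6877 genes with a mean of 30 to 350 the share without overlap was 41.3%, and 20.9% had a lower positive side, so the members' count lay near the background. Dusp9 was chosen for its change in this table, and of the 9 others 3 had sides apart. Summed over the 9 members other than Dusp9, the columns held 1245 and 914 normalised reads on the positive side against 1357 and 910 on the negative side. The sums overlapped almost completely.

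**Figure D1:**
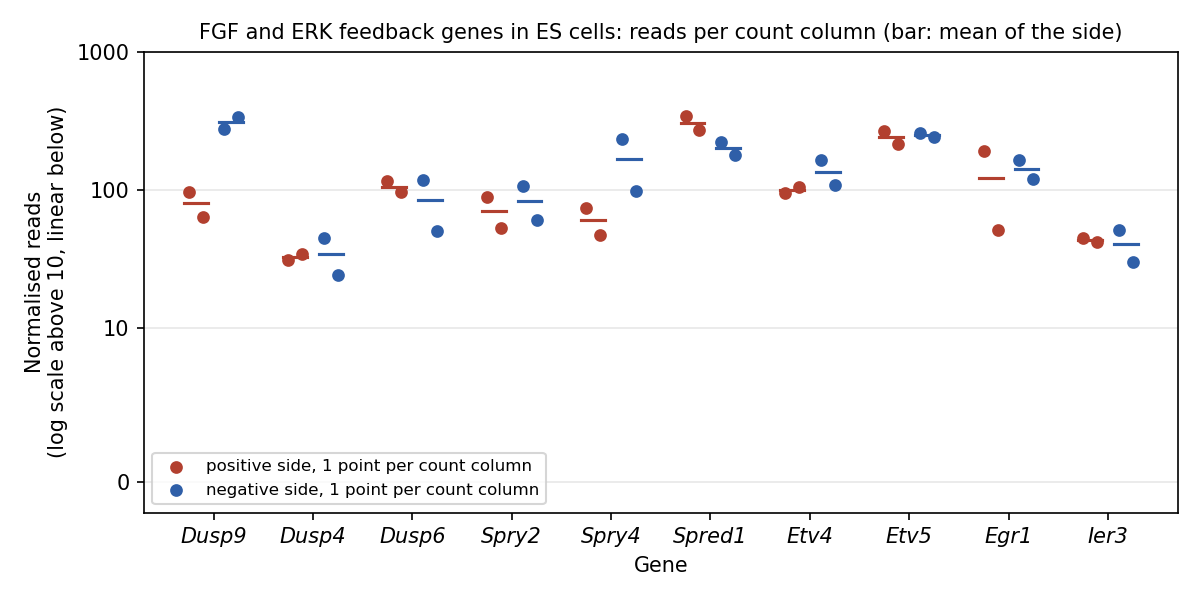
Normalised reads of the 10 FGF and ERK feedback genes in ES cells, on a log scale above 10 and a linear one below, with 1 point per count column (2 a side) and a bar at the mean of each side. Dusp9 shows the widest gap, with 63.2 and 96.6 on the positive side below 277 and 338 on the negative side, whereas Etv5 and Dusp4 overlap.

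The rest of the pathway was examined through 120 listed genes that are no members. In ES cells 0 of the 102 tested had an adjusted p under 0.05 in the authors' deposited table, and 2 positive and 7 negative genes had an unadjusted p under 0.05, against 2.21% and 3.42% of all tested genes. Their median log2 fold change was −0.08. Of the ligands, 0 of 6 tested passed the unadjusted threshold, and Fgf4, the main ligand of ES cells, had 481 and 549 normalised reads on the positive side against 531 and 485 on the negative side. The level of Fgf4 overlapped between the sides. Of 15 tested receptors and co-receptors 2 were negative at the unadjusted threshold in the authors' deposited table: Erbb3, a receptor of the EGF family (−0.74, SE 0.30), and Gpc4, an X-linked heparan sulphate proteoglycan (−0.73, SE 0.29). Among 25 tested adaptors and kinases, the scaffold Ksr1 (−0.82, SE 0.32) and the X-linked ERK substrate kinase Rps6ka3 (−0.81, SE 0.29) were negative and the kinase Rps6ka5 (0.53, SE 0.27) positive at that threshold in the authors' deposited table.

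Dusp1, a phosphatase of stress-activated kinases and ERK, was the 1 of 25 other tested feedback inhibitors below the unadjusted threshold in the authors' deposited table (−0.64, SE 0.31, unadjusted p = 0.0374). Its normalised reads were 83.8 and 34.2 on the positive side against 103 and 127 on the negative side. Both positive-side columns were below both negative-side columns, as in 20.9% of 6877 genes with a mean of 30 to 350. Of 19 tested target and effector factors, the authors' deposited table gives Phlda1 −0.91 (SE 0.32, unadjusted p = 0.00440), Ets2 −0.78 (SE 0.31, unadjusted p = 0.0119) and Ccnd1 0.54 (SE 0.24, unadjusted p = 0.0229). Phlda1, a target of receptor tyrosine kinases, rested on 7 and 1 reads against 30 and 22, and Ccnd1, the G1 cyclin D1, had 395 and 440 against 313 and 224 normalised reads. Genes of this list, which holds effectors as well as targets of ERK, therefore stood on both sides, but not evenly. Of the 19 target and effector factors 5 were positive and 14 negative, with a median log2 fold change of −0.17. Over all tested genes 5369 were positive and 5370 negative. Targets were not counted apart from effectors. None of the 12 other tested immediate early genes passed the unadjusted threshold in the authors' deposited table, and their fold changes ran from −0.43 to 0.45.

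**Figure D2:**
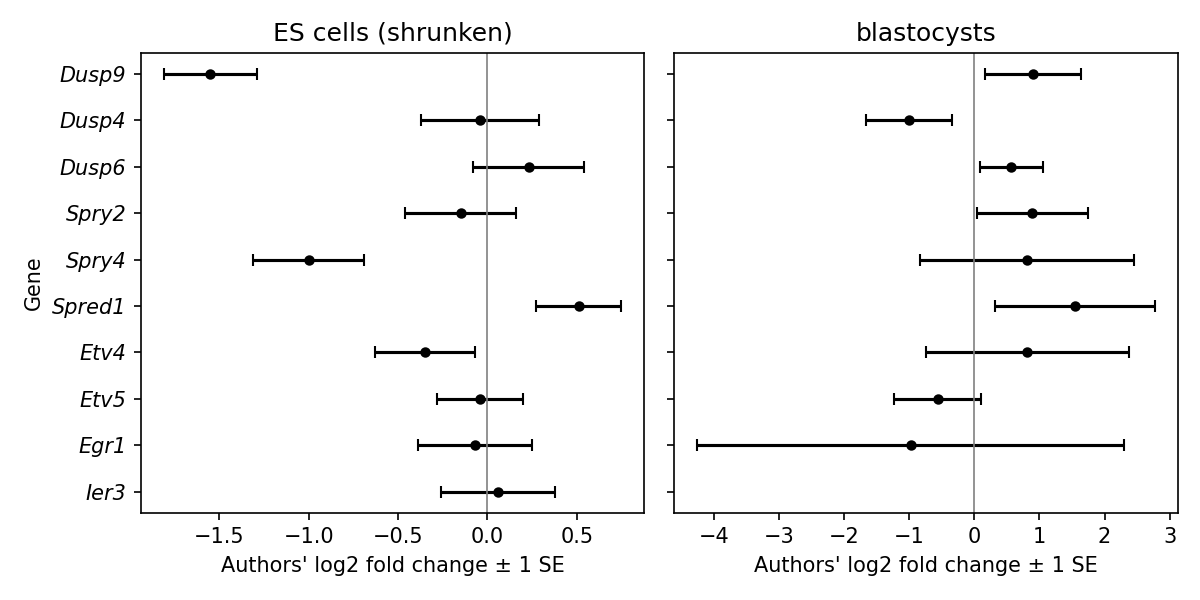
Authors' log2 fold changes of the 10 feedback genes with 1 SE either way, in ES cells (left, shrunken) and blastocysts (right, not shrunken, Ier3 without a value); the scales differ. Dusp9 is at −1.55 in ES cells and 0.90 in blastocysts, and the widest error in blastocysts is that of Egr1 (SE 3.28).

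Dusp9 lies on chromosome X, and X-linked genes as a group stood lower on the positive side of the ES cell table. Of 370 tested X-linked genes 80.0% were negative, with a median log2 fold change of −0.31, whereas of 10358 autosomal genes 49.0% were negative and the median was 0.01. On recovered reads the X-linked median was −0.48, and without the first negative-side column it was −0.62. X-linked genes made up 9 of the 23 negative calls of the table, and Dusp9 ranked 3 from the lowest Wald statistic among the X-linked genes. These 9 calls include Dusp9 itself and 4 genes within 500 kb of it. Both the count and the rank use the value for which Dusp9 was chosen. Relative to autosomes, 233 X-linked genes of moderate level had column medians of −0.28 and −0.21 on the positive side against 0.10 and 0.39 on the negative side, in log2 units about each gene's own mean. Dusp9 followed the same order of sides with larger values, −0.68 and −1.28 against 0.83 and 1.12. Of 6 listed X-linked genes of the pluripotency and ERK network 5 were negative in the authors' deposited table, with Klhl13 and Rps6ka3 among those past the unadjusted threshold. The 4 listed Y-linked genes summed to 17 and 1104 normalised reads on the positive side against 90 and 18 on the negative side. Their high column was the second of the positive side, where Dusp9 was lowest. In the first positive-side column, with a Y-linked sum of 17, Dusp9 was also low, at 96.6 against 277 and 338 on the negative side. The part of X-chromosome dosage in the Dusp9 value was not tested.

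**Figure D3:**
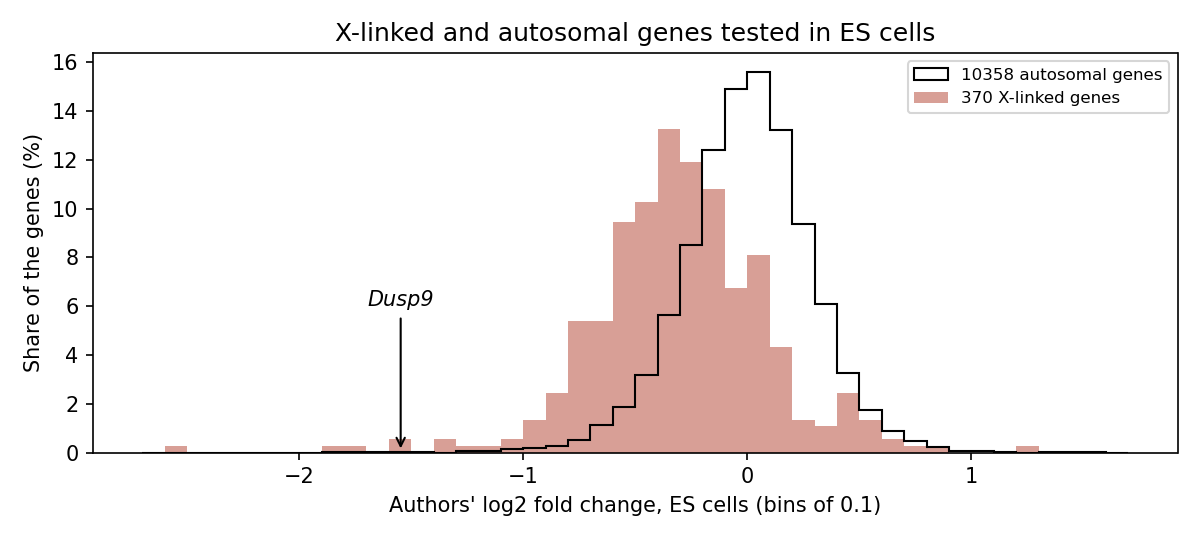
Share of genes (%) by authors' log2 fold change in ES cells, in bins of 0.1, for 370 X-linked genes (filled) and 10358 autosomal genes (outline), with Dusp9 marked at −1.55. The X-linked distribution is centred at −0.31 and the autosomal one at 0.01, and Dusp9 lies in the lower tail of both.

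Genes around Dusp9 were lower on the positive side too. Within 500 kb of the gene, 22 of 22 protein-coding neighbours with a mean of at least 10 had a negative fold change in ES cells, with a median of −0.68, and 12 of them passed the unadjusted and 4 the adjusted threshold in the authors' deposited table. The nearest of these neighbours was the creatine transporter Slc6a8, 29.6 kb away, with 127 and 90.9 normalised reads on the positive side against 424 and 600 on the negative side. Slc6a8 had a log2 fold change of −1.83 (SE 0.25, adjusted p = 2.21e-09) in the authors' deposited table, past that of Dusp9. The other 3 called neighbours, Xlr5a, Xlr3c and Xlr5c at −1.57, −1.29 and −1.37 in the authors' deposited table, belong to a family of near-identical copies, and their calls are uncertain because reads may be split between them. Bcap31 and Renbp, at 42.7 and 278.6 kb, gave −0.96 and −1.0 in the authors' deposited table, with adjusted p-values of 0.0582 and 0.0561. The difference was not even across the region, since Bgn and Hcfc1 gave −0.15 and −0.01 there. Around the 8 other members that had such neighbours in ES cells, 0 neighbours were called, and their medians ran from −0.09 to 0.35. These 8 members lie on autosomes, where the median over tested genes was 0.01, against −0.31 for X-linked genes. No other X-linked window was compared.

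**Figure D4:**
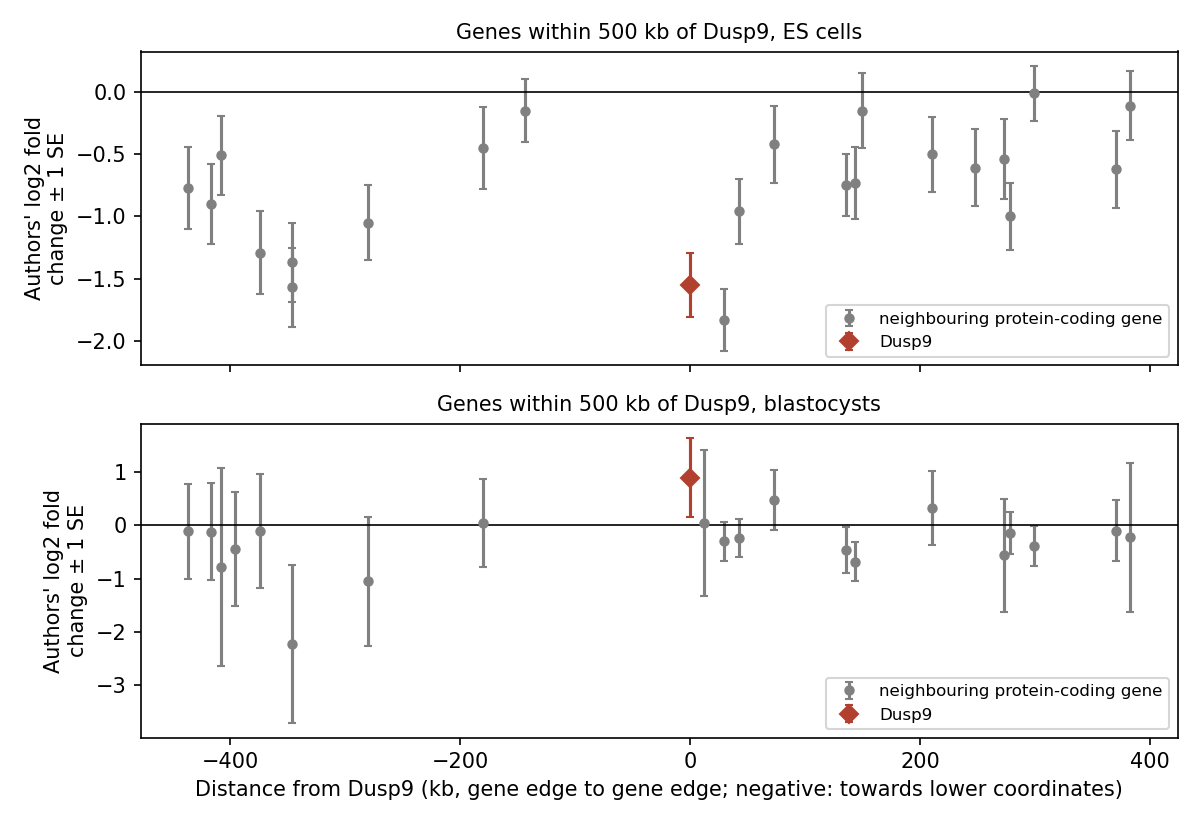
Authors' log2 fold change with 1 SE either way of Dusp9 (diamond) and of neighbouring protein-coding genes (circles) by distance from Dusp9 in kb, in ES cells (top) and blastocysts (bottom). In ES cells all 22 neighbours lie below 0, and in blastocysts Dusp9 is at 0.90 while 16 of 20 neighbours lie below 0.

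The genes with the column pattern most like that of Dusp9 were sought among 5236 ES cell genes with a mean of 50 to 350, by the distance between centred log2 normalised reads over the 4 columns. Slc6a8 and Plce1, a phospholipase C that also acts on RAS family proteins, were nearest (distance 0.32 each), followed by Map3k5, a stress-activated kinase kinase kinase (0.38), Zfp275 (0.55) and Cmtm7 (0.57). Slc6a8 and Zfp275 lie within 500 kb of Dusp9, while Plce1, Map3k5 and Cmtm7 lie on chromosomes 19, 10 and 9. Dusp4 and Ier3, with means under 50, were not candidates, and none of the 7 other feedback genes was among these 5. With only 5 of 5236 genes named, this absence says nothing about whether those members follow Dusp9. The search also used the values for which Dusp9 was chosen.

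Markers of feeder fibroblasts also differed between ES cell columns. The 12 listed fibroblast genes were all detected, 10 of 12 with a negative fold change, and Col1a1, Col5a1 and Lum passed the unadjusted threshold in the authors' deposited table. Summed over 11 of them the columns held 770 and 656 normalised reads on the positive side against 765 and 2357 on the negative side. The high value was that of the second negative-side column. Dusp9 stood at 277 in the first negative-side column, whose fibroblast sum lay between those of the positive side. For Spry4 the high column was the first negative one, where fibroblast markers were low, and for Ets2 it was the second (154 against 71.3). ES cell and epiblast markers had a median of −0.33, with 9 of 10 negative and 0 past the unadjusted threshold in the authors' deposited table. Trophectoderm and primitive endoderm lists had 5 and 3 tested genes in ES cells, at medians of −0.37 and 0.16. The part of cell composition in the members' values was not tested.

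The second question was the same comparison in blastocysts. None of the 9 tested members had an adjusted p under 0.05 in the authors' deposited table, or an unadjusted one, where 0.0986% (0.0855% negative) and 6.21% of 15209 tested genes did. Their log2 fold changes ran from −1.01 to 1.54, 6 positive and 3 negative, with a median of 0.81, or 0.69 without Dusp9, against −0.04 over all tested genes. Single columns moved that median: it was 0.32 without the third positive-side column, 0.39 without the first negative-side column and 0.41 without the third negative-side column. The columns of the sides overlapped in 9 of 9 members, 0 lying apart. Of 3876 genes with a mean of 10 to 60, a range that holds Spry2, Spry4, Spred1 and Etv4 but not the other members, 11.0% had sides apart, 6.37% with the positive side lower, so the count of 0 is near the background. Errors were wide, from 0.49 to 3.28 for the members, so differences within these errors were not detectable at this depth. Per the labels, each of these libraries came from a single embryo.

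Dusp9 had 89.9, 384 and 443 normalised reads in the positive-side columns against 27.2, 370 and 94.9 in the negative-side ones. The side means were 306 and 164, and the range within a side was wider than the difference between them. The authors' deposited table gives 0.90 (SE 0.74, unadjusted p = 0.227), opposite in sign to the ES cell value, and the difference between the tables was not tested because the direction is not stated. Single columns moved this value both ways, since the log2 ratio was 2.32 without the second negative-side column, 0.39 without the first negative-side column and 0.53 without the third positive-side column. The Y-linked gene Uty had 0, 74 and 78 reads on the positive side against 0, 0 and 22 on the negative side. The columns with and without Uty reads both held high and low Dusp9 values. X-linked genes had a median of −0.18 over 613 tested genes, with 57.1% negative, against −0.03 for autosomes. Of 20 neighbours of Dusp9 16 were negative, with a median of −0.23 and 0 past the unadjusted threshold in the authors' deposited table.

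Dusp6, the member with the highest level per kb, had 157, 438 and 471 against 280, 290 and 147 normalised reads. Its log2 fold change in the authors' deposited table was 0.57 (SE 0.49), and its lowest positive-side column lay inside the range of the negative side. Dusp4 had 169, 146 and 25.1 against 111, 254 and 322 normalised reads, at a log2 fold change in the authors' deposited table of −1.01 (SE 0.66, unadjusted p = 0.125). The third positive-side column was the lowest for Dusp4 and the highest for Dusp6 and Dusp9.

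The Sprouty and Spred members had means of 47.2 (Spry2), 23.5 (Spry4) and 35.2 (Spred1) normalised reads in blastocysts. Spry2 had 25.7, 46.7 and 112 normalised reads against 43.3, 26.8 and 28.8. A single positive-side column, the third, stood above the rest for Spry2. For Spry4 the positive side was even, at 31.4, 28.4 and 29.7, while the negative side held 51.3 in one column and 0 reads in the other two, which allows up to 3 reads there, or 1.85 and 4.32 normalised reads. This floor, here and below, covers counting error only. It takes reads as independent, although 94.0% of non-zero blastocyst read numbers were even, so it may be too low. Spred1 had 14.3, 79.2 and 64.0 against 33.4, 0 and 20.1 normalised reads, and the 0 allows up to 3.34. The log2 fold changes in the authors' deposited table were 0.89 for Spry2 (SE 0.85), 0.81 for Spry4 (SE 1.65) and 1.54 for Spred1 (SE 1.23). All 3 were positive with errors near or above their size.

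Etv5 had 131, 173 and 20.6 normalised reads on the positive side against 165, 169 and 144 on the negative side, at a log2 fold change in the authors' deposited table of −0.56 (SE 0.67). As with Dusp4, the third positive-side column was far below the other 5. Etv4 had 24.3, 36.5 and 0 against 19.8, 8.92 and 5.75, with the same column lowest and a 0 that allows up to 3.43. Egr1 reads were seen in 2 of 6 columns, at 10.1 and 20.1 normalised reads on opposite sides. Ier3 was listed at a mean of 0, which allows up to 3 reads in each of the 6 columns, so the immediate early members could not be compared in these embryos.

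**Figure D5:**
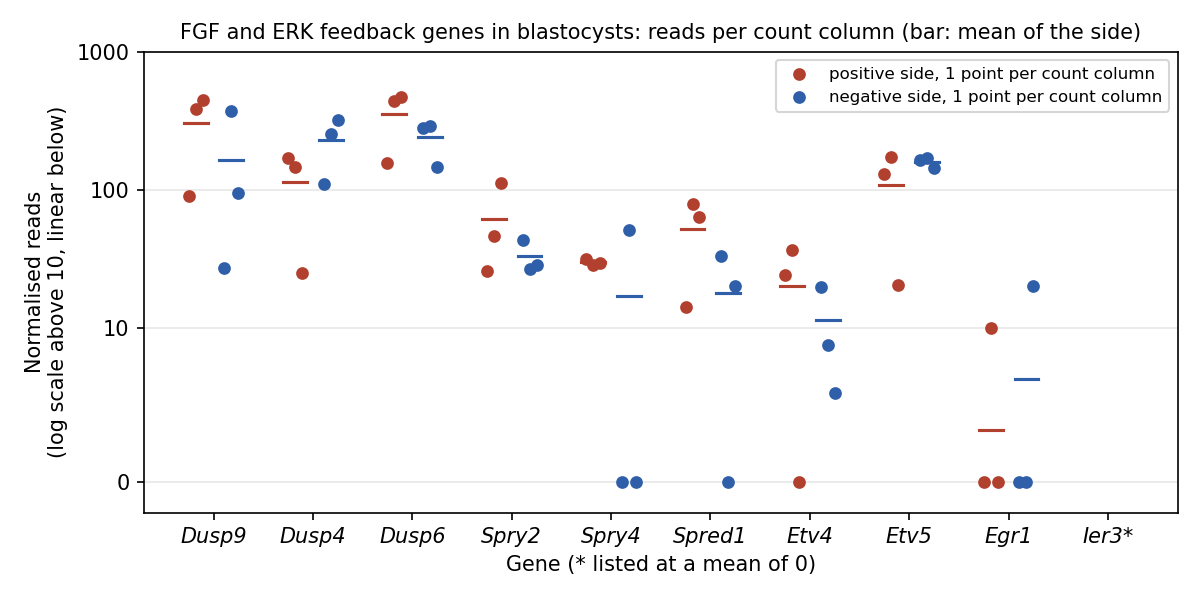
Normalised reads of the feedback genes in blastocysts, on a log scale above 10 and a linear one below, with 1 point per count column (3 a side) and a bar at the mean of each side; Ier3 is listed at a mean of 0. In each of the 9 genes with reads the sides overlap, as for Dusp9 with 89.9 to 443 on the positive side against 27.2 to 370 on the negative side.

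The third positive-side column was also the lowest of 6 in Nanog, an epiblast factor, with 197, 65.0 and 9.14 normalised reads on the positive side against 518, 185 and 331 on the negative side. Nanog, Pou5f1 and Tdgf1 were negative at the unadjusted threshold in the authors' deposited table, with log2 fold changes of −1.93, −1.21 and −1.75, and 0 of 10 epiblast markers passed after adjustment. Over the whole epiblast list 4 of 10 were positive and 6 negative, with a median of −0.33, and Sox2, Esrrb, Fgf4 and Tfcp2l1 were between 0.00 and 0.10 in the authors' deposited table. Summed over the 8 epiblast markers with recovered reads, Nanog, Pou5f1 and Tdgf1 among them, the columns held 1212, 657 and 406 against 1745, 1260 and 1859 normalised reads. The sums of those 8 lay apart between the sides. Those of the feedback genes without Dusp9 were 553, 958 and 722 against 652, 800 and 688, and overlapped. Fgf4 had 136, 124 and 43.4 against 55.7, 158 and 69.1 normalised reads, and overlapped. Of 9 tested primitive endoderm markers 4 were positive and 5 negative in the authors' deposited table, with a median of −0.05, from −0.77 for Gata6 to 3.27 for Sox7, which was the 1 of them past the unadjusted threshold. Reads per column were recovered for 4 of that list, whose sums were 510, 282 and 389 against 109, 230 and 291. Of 10 trophectoderm markers 2 were positive and 2 negative at that threshold in the authors' deposited table, with a median of 0.07, and of 12 fibroblast markers 7, Col1a1 included, were listed at 0. The part of cell composition in the blastocyst values was not tested.

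Of the 120 other pathway genes, 0 of 104 tested in blastocysts had an adjusted p under 0.05 in the authors' deposited table, and 2 positive and 3 negative genes passed the unadjusted threshold, against 2.68% and 3.53% of all tested genes. Among 7 tested ligands, 18 receptors and co-receptors and 26 adaptors and kinases none passed it. Of 25 other feedback inhibitors, the receptor-degrading protein Lrig1 was positive (1.61, SE 0.68) and the heparan sulphatase Sulf2 negative (−1.32, SE 0.37, unadjusted p = 0.000374, adjusted p = 0.178) in the authors' deposited table. Lrig1 had 101, 116 and 261 normalised reads on the positive side against 24.7, 91.4 and 40.3 on the negative side, with the sides apart. Of 18 target and effector factors, the cytokine gene Lif was positive (1.41, SE 0.62) and Phlda1 negative (−3.05, SE 1.26) in the authors' deposited table, and of 10 immediate early genes Jund was negative (−0.91, SE 0.43). Phlda1 rested on 14, 7 and 0 reads against 122, 12 and 38. It was the 1 pathway gene past the unadjusted threshold in both tables, of 9 in ES cells and 5 in blastocysts. Its sign was negative in each, but whether that stands for the same genotype in both is not stated.

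Levels were compared between members as mean normalised reads per kb of the longest annotated transcript. In ES cells they ran from 71.2 for Dusp9, followed by Etv5 (61.5), Etv4 (49.0), Spred1 (42.0), Ier3 (37.2), Spry2 (36.9), Dusp6 (33.9), Egr1 (29.3) and Spry4 (23.8), to 12.2 for Dusp4. In blastocysts the order of levels per kb was Dusp6 (106), Dusp9 (86.3), Dusp4 (62.5), Etv5 (33.6), Spry2 (22.6), Etv4 (6.63), Spred1 (5.84), Spry4 (4.94) and Egr1 (1.13). Over all columns, with both sides pooled, the ranges of each pair of neighbours in either order overlapped. Genes were not compared column by column, so whether neighbours in the order differ was not tested. The tables were normalised separately and come from different library types, so levels were not compared across them.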

How the data were processed

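RNA-seq of blastocysts and ES cells was analysed from 1 deposited table per material. Per the submitters' processing notes, STAR 2.4.0b, SAMtools, bedtools, featureCounts (Subread 2.0.1) and DESeq2 1.34.0 were used with the GRCm38 build, without stated roles. Per the file headers, the signal column is the authors' mean of normalised counts, the log2 columns are their log2 fold change and its SE, the score column is their Wald statistic, and the p-value columns hold their p-value and adjusted p-value. The ES cell fold changes are shrunken (SE at most 0.33), those of blastocysts are not (SE up to 4.08), so sizes are not comparable between the tables. The tables hold 0 columns of per-sample values, so the authors' Wald tests were used at an adjusted p-value of 0.05. Signs are as deposited, since the direction is not stated.

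Each deposited mean was solved for whole reads per count column with the steps that recur between low means. Exactly 1 solution was found for 12137 of 12137 ES cell genes with a mean up to 350 and for 10269 of 10389 blastocyst genes with a mean up to 60. For 62 listed blastocyst genes with a mean of 60 to 300, Dusp9, Dusp4, Dusp6 and Etv5 among them, the authors' fold change and SE chose the solution. Even read numbers were tried first for these genes. A solution was kept if its negative binomial refit came within 0.0001 of the fold change, so that closeness is no check. Of 3829 solved blastocyst genes with a mean of at least 10, such a refit came within 0.001 of the authors' fold change for 3821. Columns were placed on a side by the sign of the authors' fold changes, without any test across them. In blastocysts 94.0% of non-zero read numbers were even, and whether a read stands for a fragment or for 1 mate was not tested. The calculations were tested on simulated data.

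The members and lists were chosen with earlier results of these data known. Pathway genes were named where an unadjusted p-value was under 0.05, up to 5 a list by smallest p, and the 5 genes nearest to Dusp9 over the ES cell columns. Neighbours, markers and Dis3l are named outside that rule, after their values were seen. Transcript lengths came from GENCODE M21. Python 3.11.15, numpy 2.4.6, pandas 2.3.3, scipy 1.17.1 and numba 0.67.0 were used. Alternatives were other thresholds and adjustments, rescaled statistics, recovered reads and each column left out.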

Additional observations from a re-analysis of the deposited data

How the results depend on the processing

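No paired analysis was possible because the tables hold no values per sample and their count columns carry no replicate numbers. In ES cells the count of members past the threshold was 1 (Dusp9), and was 0 when adjusted over autosomal genes, which leaves Dusp9 out by construction, 2 with statistics divided by their robust SD (with Spry4, adjusted p 0.0421 in place of 0.150) and 3 at an unadjusted p under 0.05. It stayed 1 at an adjusted p under 0.01, over every gene with a p-value and over genes with a mean of at least 50. The member counted there was Dusp9 each time, chosen for its change in this table, so the steady count is no support. The blastocyst count was 0 under each of these settings. For the other pathway genes the count was 0 except at an unadjusted p under 0.05, with 9 in ES cells and 5 in blastocysts.

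With each count column left out in turn, the members' median ran from −0.43 to 0.12 in ES cells and from 0.32 to 0.77 in blastocysts, and the X-linked median in ES cells, an alternative added after seeing the data, from −0.62 to −0.32. Of 67 recomputed adjusted p-values of members, 66 stayed on the same side of the threshold, Spry4 being the exception. Of 29 member fold changes recomputed on whole data 25 lay within 1 SE of the deposited value. The 4 others were Dusp9 and Spry4 in ES cells, on recovered reads (−1.94 and −1.46) and with the shrinkage undone (−1.92 and −1.44). All 29 were derived from the deposited values themselves, so their closeness is no independent check. With a column left out, 72 of 91 stayed within 1 SE. With 2 columns a side in ES cells and SEs of 0.49 to 3.28 in blastocysts, depth and number of libraries limit what could be detected.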
